A study of Mus musculus with 8 samples.

Results

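The 10 genes described here make, break down and regulate the polyamines putrescine, spermidine and spermine in mouse muscle. They are the rows of the deposited count table with the symbols Odc1, Amd1, Amd2, Srm, Sms, Smox, Sat1, Oaz1, Oaz2 and Azin1, 10 of 48709 genes in the table. Each symbol matched 1 row, and all 10 passed the filter on low counts that left 14712 genes to test. Poly(A) RNA was sequenced from whole gastrocnemius, a calf muscle, of C57BL/6 mice aged 16 weeks. The control group (4 libraries) carried a floxed glucocorticoid receptor gene, Nr3c1. The other group (4 libraries, genotype GR(i)skm-/-) came from the floxed line crossed to HSA-Cre-ERT2, in which the human skeletal actin promoter drives an inducible Cre recombinase in myofibres. The sources used here name neither the agent nor the time of induction, and cells of the muscle other than fibres keep the receptor by design. The comparison asks which transcripts differ in muscle when fibres lack the receptor for glucocorticoids.

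Polyamines are small positively charged molecules that bind RNA and DNA and are needed for translation and growth. Ornithine decarboxylase makes putrescine, and S-adenosylmethionine decarboxylase supplies the aminopropyl groups with which spermidine synthase and spermine synthase build the larger polyamines. Spermine oxidase and the acetyltransferase encoded by Sat1 run the pathway backwards, while antizymes bind ornithine decarboxylase and send it to the proteasome. In muscle, androgens are known to raise expression of several genes of this pathway, and spermine oxidase is known to fall in wasting muscle.

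The libraries are called A to D (control) and E to H (labelled knockout), in the order of the columns, since no label ties a column to a replicate. Total counts ran from 36680510 to 52200305. Expression is given as CPM, the count of a gene scaled to its library's total and corrected by TMM, and fold changes set the group labelled knockout over control. The targeted gene went against the label in E and G. Nr3c1 was at 83.2 to 90.0 CPM in the 4 control libraries and at 38.6 and 42.8 CPM in F and H, but at 87.1 CPM in E and 96.7 CPM in G, a difference between groups that did not pass the edgeR test (log2 fold change -0.39 ± 0.31 SE, adjusted p = 0.452; exact permutation p = 0.371, two-sided, smallest possible 0.0286). With E and G left out, the log2 fold change of Nr3c1 was -1.09 (edgeR adjusted p = 0.00162). These 2 libraries were left out for their Nr3c1 values, so this p-value is circular and is no test. It is the lowest over 19 alternatives, which ran up to 0.698. Fkbp5, a textbook target of the receptor, was at 36.0 to 57.7 CPM in control, at 6.68 and 10.7 CPM in F and H and at 32.2 and 31.4 CPM in E and G, so that all 4 were below control (exact permutation p = 0.0286, the smallest possible; edgeR adjusted p = 0.214). The counts of calls are therefore also given with E and G left out, which was decided once these values were known. The ribosomal transcript Gm42418 was at 3835 to 16656 CPM in control against 740 to 938 CPM in the other group. Lars2, Rpph1 and Rmrp were lower as well and mt-Nd6 was higher. Of 7 RNA quality genes 5 were called, and 1 without E and G, against 1243 and 226 of all genes. Control library D was the lowest control library for Gm42418, Lars2, Rpph1 and Rmrp. The part of these transcripts in the results was not tested. Fibre genes were abundant throughout, with Acta1 at 35967 and 28561 CPM on average.

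Sequences are shown first for the S-adenosylmethionine decarboxylase genes, because they decide how far their counts can be read apart. Amd1 has 8 exons and lies at chr10:40287458-40302186 on the minus strand of GRCm38, the assembly of mm10. Amd2 has 1 exon, at chr10:35708675-35711892 on the same strand. Their longest transcripts in GENCODE M21, of 3204 and 3218 bases, matched at 99.6% of 3204 aligned bases, with 14 mismatches and a longest identical run of 930 bases. The RefSeq start regions of GRCm38.p6 share a run of 48 bases at the start, of which the first 18 are in capitals below, after 40 bases of each gene's own sequence (Amd1 chr10:40302169-40302226 and Amd2 chr10:35711874-35711931, both minus strand).
Amd1: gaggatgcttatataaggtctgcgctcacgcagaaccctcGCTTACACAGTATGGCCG
Amd2: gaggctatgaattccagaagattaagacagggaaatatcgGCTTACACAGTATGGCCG
Reads from most of either transcript could come from the other. The counts of Amd2 are therefore uncertain, and so are those of Amd1 to an extent not known. In CPM, Amd2 was at 9.68, 4.31, 9.41 and 7.33 in A to D and at 10.7, 6.98, 5.81 and 6.00 in E to H. Per kilobase of exon it made up 0.870% to 1.96% of the sum of both genes in control libraries and 0.849% to 1.66% in the others, and these ranges overlap. Summing both genes left the estimate for Amd1 at a log2 fold change of 0.16, against 0.17 alone. A sum cannot restore reads that were left uncounted. The pseudogenes Amd-ps1 and Amd-ps3 held 237 and 154 counts in all, beside 214060 for Amd1 and 2534 for Amd2.

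The upstream sequences of the 3 members that vary most between libraries, Odc1, Amd1 and Smox, and of Sms, the single member called, are shown because their values carry the results that follow. Each stretch ends at the base before the RefSeq start of GRCm38.p6 (Odc1 chr12:17544723-17544872, plus; Amd1 chr10:40302189-40302338, minus; Smox chr2:131491712-131491861, plus; Sms chrX:157492288-157492537, minus, the upstream one of its 2 RefSeq starts). The GENCODE genes can start earlier than these RefSeq starts. The Smox stretch lies inside the GENCODE gene, which starts at 131491496, and the Odc1 stretch runs past the GENCODE start at 17544794. Capitals mark the E-box CACGTG, the site bound by Myc and Max and by the clock factors.
Odc1: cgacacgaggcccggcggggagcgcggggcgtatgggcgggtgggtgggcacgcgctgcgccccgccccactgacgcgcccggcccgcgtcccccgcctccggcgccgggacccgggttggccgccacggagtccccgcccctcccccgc
Amd1: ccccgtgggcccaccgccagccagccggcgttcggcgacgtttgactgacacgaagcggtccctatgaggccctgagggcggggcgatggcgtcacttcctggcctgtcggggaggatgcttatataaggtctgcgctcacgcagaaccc
Smox: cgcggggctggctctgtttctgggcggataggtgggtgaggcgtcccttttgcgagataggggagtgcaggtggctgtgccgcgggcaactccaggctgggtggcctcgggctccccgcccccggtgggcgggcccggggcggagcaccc
Sms: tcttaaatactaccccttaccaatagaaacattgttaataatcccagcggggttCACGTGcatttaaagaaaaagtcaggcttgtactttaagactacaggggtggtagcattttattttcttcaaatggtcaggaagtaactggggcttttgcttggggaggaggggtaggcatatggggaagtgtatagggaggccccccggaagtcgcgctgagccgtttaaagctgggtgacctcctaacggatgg
In windows of 300 bases (250 before the start), searched on both strands, CACGTG was found in 1 of 9 entries for the members. It was the entry of the upstream Sms start, and the entry of the other Sms start had no match. Of all 32851 promoter entries, 7.15% had a match. The palindromic glucocorticoid response element was found in 0 of the 9 entries and in 3 of all entries. Its half-site AGAACA, which the full element contains in both orientations, was found in the windows of Oaz2 and Sat1 and in 19% of all entries. The cyclic AMP response element TGACGTCA was in no member window and in 1.79% of all. Srm and Azin1 had no entry.

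Of the 10 genes, Sms rose in the libraries labelled knockout and the other 9 did not pass the edgeR test at an adjusted p of 0.05, where 8.45% of all genes tested passed (4.04% rose and 4.41% fell). Of the 10, 1 rising and 2 falling genes had an unadjusted p under 0.05, and DESeq2 and limma-voom each called 1, which rose. The median log2 fold change of the 10 was -0.06, and that of all genes tested was -0.01. Without E and G, none of the 10 passed, where 226 of all genes did, and 3 had an unadjusted p under 0.05. The 10 estimates with their intervals show how differently the genes were resolved, narrowly for Oaz1 and Sat1 and widely for Odc1, Amd1, Amd2 and Smox.

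**Figure D1:**
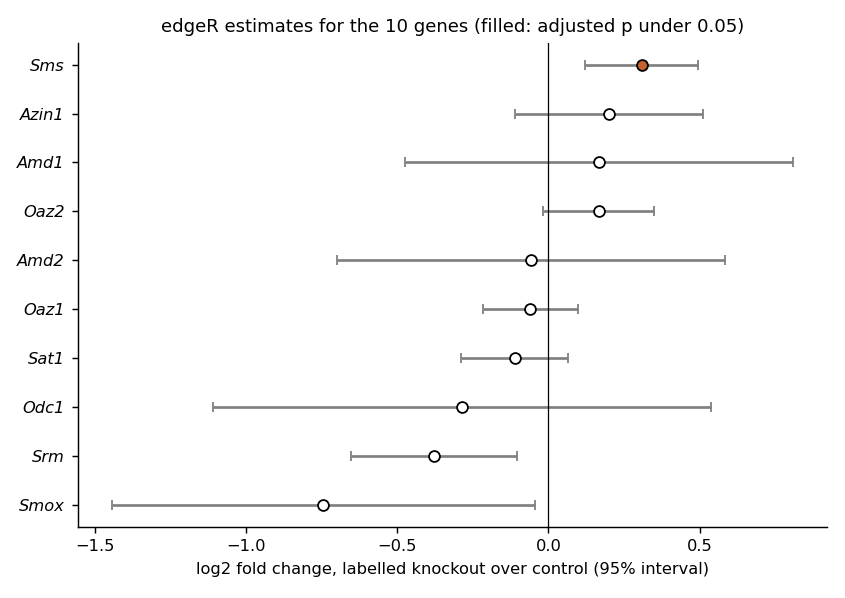
Log2 fold change of each of the 10 genes, libraries labelled knockout over control (points, edgeR), with 95% intervals (bars), ordered by estimate. The interval of Sms runs from 0.12 to 0.50 and its point is filled, the only one with an adjusted p under 0.05, while that of Smox runs from -1.44 to -0.05.

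The synthesis enzymes come first. Odc1 (chr12:17544794-17551505, plus strand) encodes ornithine decarboxylase, the enzyme that makes putrescine. Its level was 119, 59.0, 109 and 179 CPM in A to D and 115, 71.3, 121 and 74.9 CPM in E to H. The groups overlap throughout, with the highest and the lowest library both in control (log2 fold change -0.29 ± 0.35 SE, 95% interval -1.11 to 0.54, edgeR adjusted p = 0.643). In the libraries labelled knockout, the lower values were in F and H, the libraries with low Nr3c1. Control library B, with Nr3c1 at 89.6 CPM, was lower than either. A relation of Odc1 to the Nr3c1 level was not tested. The estimate went to -0.0024 without D, to -0.50 without B and to -0.67 without E and G.

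Amd1 encodes S-adenosylmethionine decarboxylase, which supplies the aminopropyl donor. It was at 534, 344, 534 and 919 CPM in A to D and at 698, 526, 747 and 647 CPM in E to H. Control library D was again the highest and B the lowest of all 8, so the groups overlap (log2 fold change 0.17 ± 0.28 SE, 95% interval -0.48 to 0.81, edgeR adjusted p = 0.737). The sign of this estimate turned without library B (-0.01) and when the dependence of each library on transcript GC was removed (-0.01).

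Srm and Sms, the aminopropyltransferases, had estimates of opposite sign. Srm (chr4:148591503-148594993, plus strand) encodes spermidine synthase, which turns putrescine into spermidine. It was at 5.89, 5.09, 4.81 and 6.75 CPM in A to D and at 4.64, 3.995, 4.17 and 4.56 CPM in E to H, from 175 to 307 counts a library. Every library labelled knockout was below every control library, and the groups of no other member were apart. Over all genes tested the groups did not overlap for 16.7%, 9.02% below and 7.68% above control. Srm did not pass the edgeR test (log2 fold change -0.38 ± 0.13 SE, adjusted p = 0.0844). With the GC trend removed its estimate was -0.22 and the groups overlapped, at 4.48 to 6.45 CPM in control and 4.29 to 4.93 CPM in the others.

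Sms (chrX:157443855-157492287, minus strand) encodes spermine synthase, which turns spermidine into spermine. Its level was 109, 101, 114 and 131 CPM in A to D and 129.6, 152, 140.2 and 142 CPM in E to H. All but library E were above every control library, and E lay just below control library D. Sms rose from 114 ± 12.8 to 141 ± 9.22 CPM (SD, n = 4 each), a 1.24-fold change (log2 fold change 0.31 ± 0.09 SE, edgeR adjusted p = 0.0494). This call lies at the threshold. It ended when A, B, C, F, G or H was left out, when E and G were left out together, and with the GC trend removed (estimate 0.18 on the log2 scale), with adjusted p-values of 0.0102 to 0.247 over 19 alternatives. Per kilobase of exon, Sms was 83.1% to 86.3% of the sum of Sms and Srm in control libraries and 88.1% to 91.0% in the others, with no overlap. With the GC trend removed it was 83.9% to 87.7% and 87.6% to 90.0%, and the groups overlapped. That share was chosen after its values were seen and carries no test.

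Smox, at chr2:131491496-131525922 on the plus strand, encodes spermine oxidase, which turns spermine back into spermidine and is an enzyme abundant in muscle. Its level was 707, 390.2, 626 and 1099 CPM in A to D and 484, 316, 465 and 419 CPM in E to H. Control library B lay among the libraries labelled knockout and the other 3 control libraries above all of them. The means were 706 ± 294.5 and 421 ± 75.1 CPM (SD, n = 4 each), the largest estimate on the log2 scale among the 10 genes, but it did not pass the edgeR test (log2 fold change -0.74 ± 0.30 SE, unadjusted p = 0.0397, adjusted p = 0.162). Without control library B alone, Smox passed (log2 fold change -0.94, adjusted p = 0.0378). It did not pass in the other 18 alternatives, among them that without E and G (-0.94), with adjusted p-values of 0.0378 to 0.349 over all 19.

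Sat1 (chrX:155213132-155216449, minus strand) encodes the acetyltransferase that marks spermidine and spermine for export or oxidation. It was at 16.6, 18.2, 16.2 and 20.1 CPM in A to D and at 17.0, 16.4, 16.9 and 15.7 CPM in E to H. The libraries labelled knockout fell inside the control range except H, just below it (log2 fold change -0.11 ± 0.08 SE, 95% interval -0.29 to 0.07, edgeR adjusted p = 0.398). The estimate was -0.05 without D.

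The antizyme genes spread least of the 10 over the control libraries, 1.18-fold for Oaz1 and 1.24-fold for Oaz2 from lowest to highest. Oaz1 (chr10:80826656-80829290, plus strand) and Oaz2 (chr9:65668001-65690300, plus strand) encode antizyme proteins, made through a ribosomal frameshift that polyamines promote. Oaz1 was at 180.3, 169, 195 and 165 CPM in A to D and at 160.3, 170.4, 182 and 168 CPM in E to H, with overlapping groups (log2 fold change -0.06, 95% interval -0.22 to 0.10, edgeR adjusted p = 0.628). Oaz2 was at 146, 181, 167 and 178 CPM in control and at 170.3, 201, 197 and 186 CPM in the other libraries (log2 fold change 0.17, 95% interval -0.02 to 0.35, edgeR adjusted p = 0.223). Its groups overlap as well, with library A the lowest, without which the estimate was 0.11. Oaz1-ps, a processed copy of Oaz1, held 163 to 250 counts a library beside 6184 to 9013 for Oaz1.

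Azin1 (chr15:38487427-38519266, minus strand) encodes antizyme inhibitor, a protein related to ornithine decarboxylase that binds antizyme in its place. It was at 48.8, 63.6, 52.6 and 56.2 CPM in A to D and at 52.7, 59.2, 58.7 and 83.6 CPM in E to H. Library H stood above the rest, and the remaining libraries of both groups overlap (log2 fold change 0.20 ± 0.14 SE, edgeR adjusted p = 0.380). The estimate was 0.04 without H and turned to -0.03 with the GC trend removed.

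**Figure D2:**
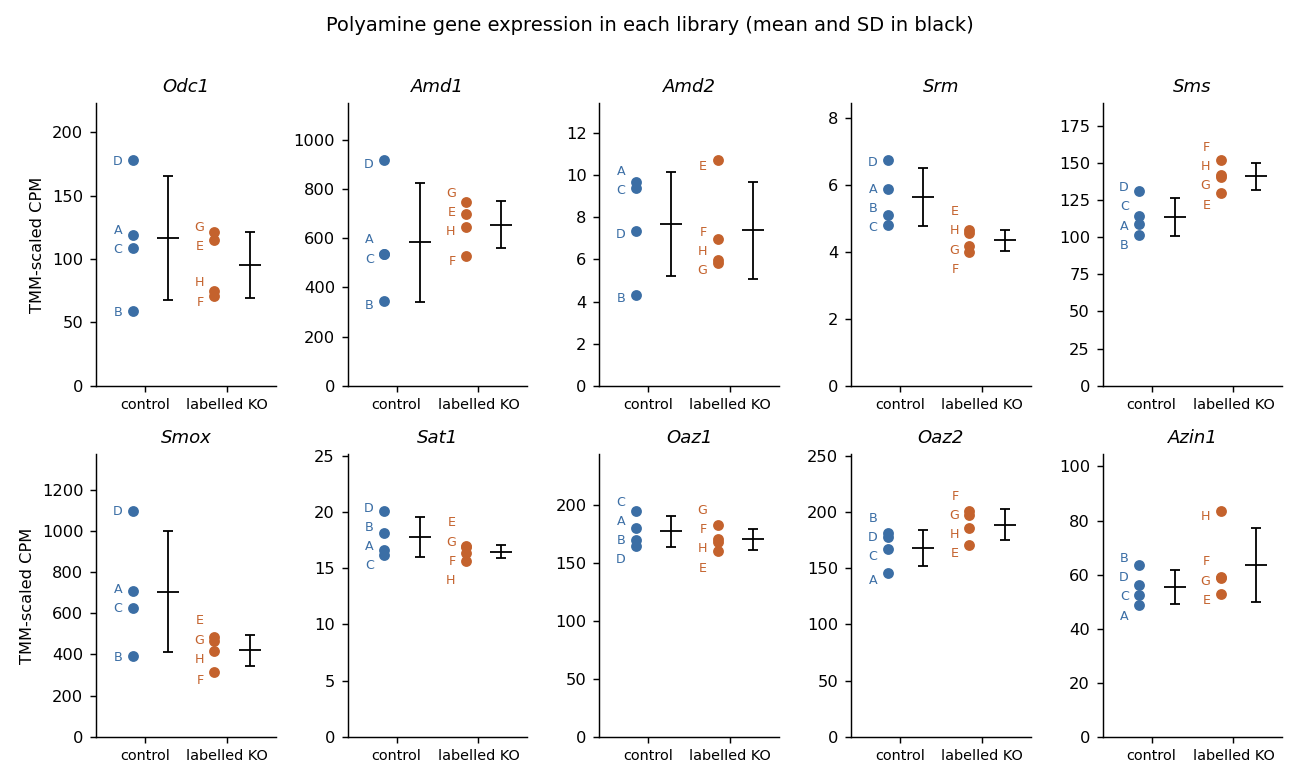
TMM-scaled CPM of each of the 10 genes in every library (points, with letters set beside them in the order of their values), with the group mean and SD (n = 4) in black and each axis starting at 0. Odc1, Amd1 and Smox spread widest in control, from B to D, where Oaz1 spreads least.

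Compared per kilobase of exon, Smox and Amd1 were the most abundant of the 10 in control muscle, at 181 ± 75.6 and 165 ± 68.2 CPM per kilobase (SD, n = 4), a difference within their spread. They were followed by Oaz1 at 69.4 ± 5.24, Oaz2 at 56.2 ± 5.30 and Odc1 at 34.2 ± 14.4 CPM per kilobase. Sms was at 18.9 ± 2.12, Azin1 at 8.84 ± 1.01, Sat1 at 6.41 ± 0.645, Srm at 3.53 ± 0.547 and Amd2 at 2.39 ± 0.771 CPM per kilobase. In the libraries labelled knockout, Amd1 at 185 ± 26.8 CPM per kilobase stood above Smox at 108 ± 19.3. The level of Amd1 carries the uncertainty of the reads it shares with Amd2. With the longest transcript as the length, Oaz2 came before Oaz1 and Sat1 before Azin1 in control, and Smox was at 307 CPM per kilobase against 182 for Amd1.

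Odc1, Amd1 and Smox went up and down together between libraries of the same group. In control, all 3 were highest in D, then A, then C, and lowest in B, and the highest library exceeded the lowest 3.03-fold for Odc1, 2.67-fold for Amd1 and 2.82-fold for Smox. The median gene tested spread 1.30-fold over the control libraries, and 5.33%, 7.01% and 6.14% of genes spread more widely than Odc1, Amd1 and Smox, respectively. In the libraries labelled knockout, all 3 were lowest in F and next lowest in H, with E and G above, and they spread 1.70-, 1.42- and 1.53-fold. The other 7 genes had other orders in control. With 4 libraries in a group these orders are a description, and the libraries also differ in depth and in the ribosomal transcript given above, whose part was not tested.

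**Figure D3:**
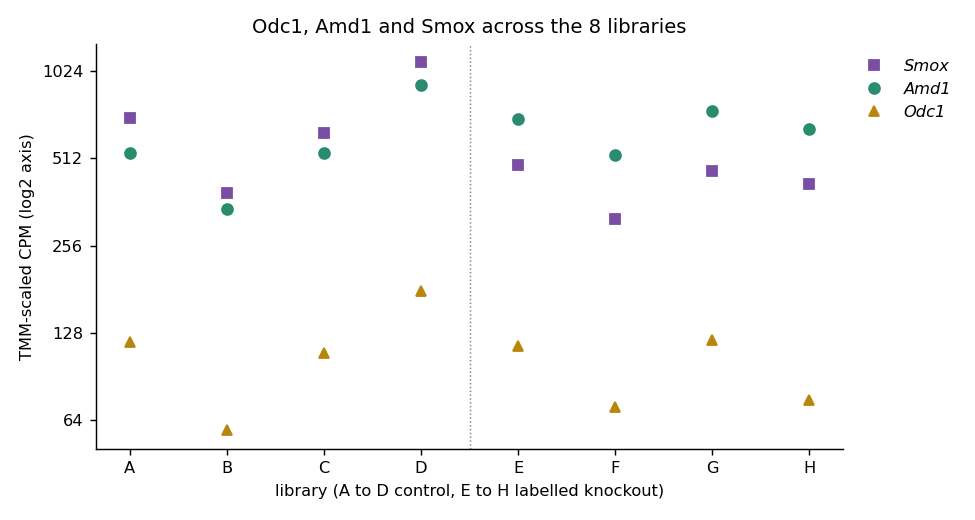
TMM-scaled CPM (log2 axis) of Smox, Amd1 and Odc1 in libraries A to D (control) and E to H (labelled knockout), which have no order within a group. Within each group the 3 genes are lowest in the same library, B or F, and Smox lies above Amd1 in every control library and below it in every library labelled knockout.

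While the 3 genes varied together, the balance between the genes differed between the groups. The ratio of Smox to Amd1 in CPM was 1.32, 1.13, 1.17 and 1.20 in control libraries A to D and 0.693, 0.601, 0.623 and 0.648 in E to H. The lowest control library was 1.64 times the highest of the others. The mean ratio was 1.21 ± 0.0816 against 0.641 ± 0.0396 (SD, n = 4 each). E and G, with Nr3c1 at 87.1 and 96.7 CPM, had ratios below every control library, as did F and H, with Nr3c1 at 38.6 and 42.8 CPM. A relation of the ratio to the Nr3c1 level was not tested. The ratio of a gene to Amd1 did not overlap between the groups for 2.52% of all genes tested. A gap downward at least as wide as that of Smox was found for 0.231% of them. Amd1 itself spread 2.67-fold over the control libraries, so the ratio of a gene that does not follow Amd1 varies within a group. The pair was chosen after its values were seen. These shares therefore do not measure how rare the gap is. Reads shared with Amd2 also leave the level of Amd1 in this ratio uncertain.

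Against Odc1, the ratio of Smox was 5.74 to 6.62 in control and 3.84 to 5.60 in the libraries labelled knockout. The ratio of Amd1 to Odc1 was 4.49 to 5.83 in control and 6.07 to 8.64 in the others. Neither ratio overlapped between the groups, as for 1.16% of all genes tested when set against Odc1. These ratios do not depend on the scaling of a library, were chosen after their values were seen and carry no test. The share against Odc1, which spread 3.03-fold in control, has the same limit as those against Amd1.

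Removing the GC trend moved the log2 differences of the 2 ratios with Amd1 more than that of Smox to Odc1. The cause was not tested. Smox and Odc1 transcripts have a GC content of 54.5% and 52.4%, and Amd1 41.4%. With each library's GC trend removed, the ratio of Smox to Amd1 was 1.04 to 1.13 in control and 0.666 to 0.770 in the libraries labelled knockout, still without overlap, and its log2 difference went from -0.91 to -0.63. The ratio of Amd1 to Odc1 then overlapped (5.33 to 5.90 against 5.51 to 7.39), and its log2 difference went from 0.46 to 0.21. The ratio of Smox to Odc1 overlapped by library H alone (5.69 against 5.67 in C), while its log2 difference was -0.45 before and -0.42 after. Without E and G the log2 difference of Smox to Amd1 was -0.95, and with any single library left out it was -0.95 to -0.87.

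**Figure D4:**
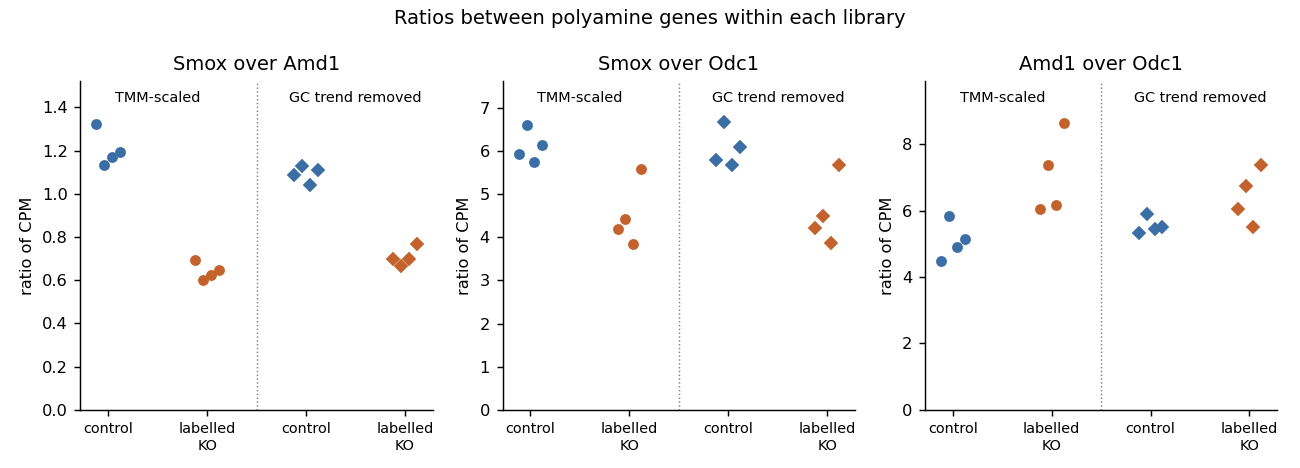
Ratio of CPM between Smox, Amd1 and Odc1 in each library (points; blue control, orange labelled knockout), with TMM scaling alone (circles) and with the GC trend removed (diamonds), on axes that start at 0. The Smox to Amd1 ratio separates the groups on both scales, at 1.04 or above in control and at 0.770 or below in the libraries labelled knockout, and the ratios to Odc1 overlap once the GC trend is removed.

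Genes around the pathway were read from lists of related genes, of which the largest share called was in transport, where 4 of 13 genes tested fell and 0 rose (4.41% and 4.04% of all genes). DESeq2 called 6 of the 13, 1 of which rose, where it called 2026 of all 14712 genes. Slc7a1 encodes the cationic amino acid transporter that brings arginine and ornithine into cells. It was at 4.55, 5.46, 4.84 and 5.15 CPM in A to D and at 3.604, 3.17, 2.76 and 2.85 CPM in E to H, with no overlap (log2 fold change -0.69 ± 0.12 SE, edgeR adjusted p = 0.00962). Atp13a2, the lysosomal P5B ATPase that exports polyamines to the cytosol, fell from 37.1 ± 1.04 to 29.3 ± 0.918 CPM (SD, n = 4 each; log2 fold change -0.34 ± 0.06 SE, edgeR adjusted p = 0.00848). Its libraries were all between 35.7 and 38.0 CPM in control and between 28.8 and 30.7 CPM in the others.

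Atp13a5, a further P5B ATPase, fell from 3.85 ± 0.949 to 1.98 ± 0.0992 CPM (log2 fold change -0.96 ± 0.19 SE, edgeR adjusted p = 0.0141). Control library B, at 2.43 CPM, lay near the libraries labelled knockout at 1.90 to 2.12 CPM, and the other 3 control libraries were at 4.27 to 4.42 CPM. Gpc1, which encodes glypican-1, a heparan sulfate proteoglycan linked to polyamine uptake, fell from 328 ± 39.95 to 252 ± 22.5 CPM (log2 fold change -0.38 ± 0.10 SE, edgeR adjusted p = 0.0384). The calls of Slc7a1, Atp13a2 and Atp13a5 held with any single library left out. That of Gpc1 ended without A, C, D, F, G or H and when scaled by library size alone (edgeR adjusted p up to 0.134 over 19 alternatives). With the GC trend removed, those of Atp13a2 (-0.18) and Gpc1 (-0.22) ended, and without E and G all 4 ended with estimates no smaller than before (-0.73 for Slc7a1, -0.36 for Atp13a2, -1.01 for Atp13a5 and -0.49 for Gpc1).

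In this list 2 genes named after their values were seen had unadjusted p-values under 0.01 and did not pass. Atp13a3, the P5B ATPase of polyamine uptake at the cell surface, was at 40.1 ± 8.12 CPM in control and 58.8 ± 9.82 CPM in the others (log2 fold change 0.55, edgeR adjusted p = 0.0591). Slc47a1, an organic cation exporter, was at 30.9 ± 10.6 and 16.5 ± 1.92 CPM (log2 fold change -0.90, edgeR adjusted p = 0.0688). In control, Slc47a1 followed the library order of Odc1, Amd1 and Smox, at 42.1 CPM in D, 32.7 in A, 32.1 in C and 16.6 in B.

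**Figure D5:**
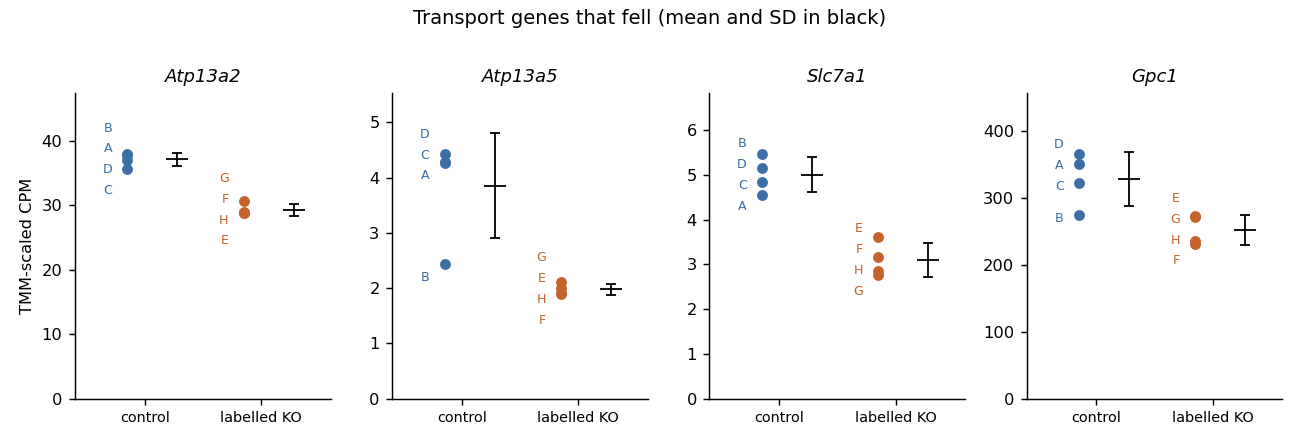
TMM-scaled CPM of Atp13a2, Atp13a5, Slc7a1 and Gpc1 in every library (points, with letters set beside them in the order of their values), with the group mean and SD (n = 4) in black and each axis starting at 0. Every library labelled knockout lies below every control library for all 4 genes, with control library B close to them for Atp13a5 and Gpc1.

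Of 14 genes tested for arginine and ornithine metabolism, which supplies the precursor, Prodh and Gamt fell and 0 rose, against 4.41% and 4.04% of all genes. No rising gene of the 14 had an unadjusted p under 0.05. DESeq2 and limma-voom called 3 and 4, all falling, where they called 2026 and 1806 of all 14712 genes. Prodh, which encodes proline dehydrogenase, fell from 9.62 ± 1.85 to 6.23 ± 0.942 CPM (log2 fold change -0.63 ± 0.16 SE, edgeR adjusted p = 0.0353). Gamt, whose enzyme makes creatine from guanidinoacetate, fell from 11.8 ± 1.139 to 7.71 ± 1.78 CPM (log2 fold change -0.60 ± 0.15 SE, edgeR adjusted p = 0.0339). Both calls ended with the GC trend removed (-0.55 for Prodh and -0.45 for Gamt) and without E and G (-0.78 and -0.36). That of Prodh also ended with any single library left out but B or E, and that of Gamt with any left out but H and when scaled by library size alone (-0.53). Arg1 and Arg2, the arginases that make ornithine from arginine, were too low to be tested.

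Of 15 genes of the methionine cycle and salvage 0 passed the edgeR test, 0 by DESeq2 or limma-voom and 5 at an unadjusted p under 0.05. Ahcyl1, which encodes a relative of S-adenosylhomocysteine hydrolase (36.9 and 41.9 CPM, adjusted p = 0.0967) and the mitochondrial S-adenosylmethionine carrier gene Slc25a26 (18.2 and 20.5 CPM, adjusted p = 0.0986) had the smallest p-values. Of the 4 genes for eIF5A and its hypusination, the modification of a translation factor that uses spermidine, 0 passed by edgeR, DESeq2, limma-voom or at an unadjusted p under 0.05. Eif5a itself was at 245 to 263 CPM in control and 226 to 234 CPM in the others (log2 fold change -0.12 ± 0.06 SE, edgeR adjusted p = 0.192). Dhps, for deoxyhypusine synthase, was at 18.3 and 20.6 CPM (adjusted p = 0.290). Of 3 further polyamine enzymes and regulators 0 passed, also by those other measures, with Azin2 at 1.82 and 1.98 CPM and Sat2 at 3.85 and 3.81 CPM. The polyamine oxidase gene Paox, the third of them and named after its values were seen, was at 3.48 and 3.501 CPM.

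Of 16 genes for factors reported to regulate Odc1, Amd1, Smox or Sat1, 0 passed the edgeR test, 5 had an unadjusted p under 0.05, and DESeq2 and limma-voom called 2 and 1. Keap1, which holds the factor Nrf2 in check, was at 84.4 ± 4.45 and 73.9 ± 6.48 CPM (edgeR adjusted p = 0.128).

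Of 24 muscle genes known to respond to glucocorticoids, 6 fell and 0 rose, against 4.41% and 4.04% of all genes (1 rising gene had an unadjusted p under 0.05), among them Per1 (log2 fold change -1.28), Arrdc2 (-2.79), Hif3a (-1.43) and Glul (-0.55). Of the 24, 3 passed without E and G, 3 without F and 2 without C or G, and DESeq2 called 11. Of all genes, 226 passed without E and G, 642 without F, 612 without C and 373 without G, and DESeq2 called 2026.

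Markers of cells other than fibres also differed between the groups, and in whole muscle fewer cells of a type and less RNA per cell cannot be told apart. All 8 Schwann cell markers fell (4.41% of all genes), their summed level going from 180 to 330 CPM in control to 67.0 to 90.2 CPM in the others. Of 7 smooth muscle and pericyte markers 4 fell (summed 533 to 643 against 463 to 530 CPM), and of 8 endothelial markers 4 fell (454 to 477 against 391 to 438 CPM). Of 8 fibro-adipogenic markers Dcn rose and Col1a1 fell (1078 to 1706 against 999 to 1567 CPM), and of 8 macrophage markers Adgre1 rose (65.1 to 108 against 91.3 to 133 CPM). Of 12 fibre genes, Mylpf and Acta1 fell. No adipocyte (6), satellite cell (5) or blood (5) marker tested passed, and Cpa3 rose among 8 B and mast cell markers. Without E and G, 6 Schwann cell and 3 smooth muscle and pericyte markers passed, all falling, and 0 of the other cell types. In that fit 226 of all genes passed. No marker was at 0 in all libraries. The part of these cells in the polyamine and transport results was not tested.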

How the data were processed

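Per the series' design text and the submitters' processing notes, the authors used bcl2fastq 2.17.1.14 for base calls, TopHat version 2 for alignment to mm10 and HOMER to count reads per gene. The deposited values are raw counts for 48709 Ensembl genes, from a stranded poly(A) kit per the labels' protocols. Annotation and strand setting: not given in the sources used here. Columns were assigned to groups by name. Whether libraries came from separate mice is not stated, so the p-values cover only the spread between libraries. Within a group no library repeated another: even A and C, the closest pair, had a chi-square per degree of freedom of 13.12. Pairs of libraries across the groups were not compared.

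Genes were kept with filterByExpr (minimum count 10, total 15), scaled by TMM and tested by edgeR's quasi-likelihood method (robust, no covariate) (edgeR 4.0.16, limma 3.58.1, DESeq2 1.42.0, R 4.3.3), checked on simulated data. Benjamini-Hochberg adjustment ran over the 14712 genes, threshold 0.05. The SE is the absolute log2 fold change over the square root of F. Lengths, positions and transcript GC came from GENCODE M21 on GRCm38, and GC (14687 genes with a record) was corrected by a lowess trend of span 0.3 for each library. Intervals of fold changes are 95%.

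The members and lists were chosen with earlier results of these data known. Named besides the 10 members were Nr3c1, Fkbp5 and the up to 4 called genes with the largest change in each related list. In a list with no call, the 2 of smallest p were named. Up to 3 called genes per cell type, and of RNA quality, were named too. Outside these rules stand Gm42418, mt-Nd6, Atp13a3, Slc47a1, Paox, Arg1, Arg2 and the pseudogenes. The alternatives tried are in the closing section. Some genes covered by these rules are not reported here.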

Additional observations from a re-analysis of the deposited data

Results flagged for a closer look

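Among 74 groups of 4 libraries tested for a value far from the other 3, 4 had one, and chance flags about 1 in 20. Atp13a5 in control library B was at 2.43 CPM, below the other control libraries. Atp13a2 in library G was at 30.7 CPM, above the others labelled knockout. Hif3a in control library D was at 2.60 CPM, above the other control libraries, and Per1 in library F was at 29.0 CPM, below the others labelled knockout. None of the 10 polyamine genes and none of the ratios between them held such a value.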

How the results depend on the processing

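No paired analysis was possible because replicate numbers in the labels cannot be matched to columns. The count of all genes called was 1243, and 2026 by DESeq2, 683 with the GC trend removed, 226 without E and G, and 373 to 1794 with each library left out (606, 612, 642, 373 and 699 without A, C, F, G and H). Of the 10 members, 1 was called, and 0 with the GC trend removed, with counts thinned to the smallest library or without E and G, 2 at an adjusted p under 0.1, and 0 to 1 with each library left out (0 without A, C, F, G or H, and Smox in place of Sms without B). The log2 fold change of Sms was 0.31, and 0.18 (GC trend removed), 0.31 (thinned) and 0.37 (without E and G) where its call ended, or 0.26 to 0.38 with each library left out. That of Smox was -0.94 to -0.45 with each library left out. Signs turned, always without a call, for Amd1 (-0.012 with the GC trend removed, -0.012 to 0.48 with each library left out), Amd2 (0.022 by library size alone, -0.29 to 0.076 with each library left out), Oaz1 (0.019 by library size alone, 0.065 with the GC trend removed), Azin1 (-0.033 with the GC trend removed), Azin2 (-0.0045 without E and G) and Sat2 (0.058 by library size alone, 0.00068 with no filter, -0.057 to 0.026 with each library left out). Odc1 (-0.50 to -0.0024 with each library left out), Srm (-0.44 to -0.28), Sat1 (-0.15 to -0.05) and Oaz2 (0.11 to 0.21) kept their sign and stayed uncalled in all 19 alternatives. In the 6 related polyamine lists 6 genes were called, and 11 by DESeq2, 11 by limma-voom, 2 with the GC trend removed (Slc7a1 and Atp13a5), 0 without E and G, and 3 to 10 with each library left out (3 without A, C, D or G, 10 without B). The log2 difference of Smox to Amd1 was -0.91 and -0.63 with the GC trend removed (-0.95 to -0.87 with each library left out), and that of Amd1 to Odc1 0.46 and 0.21 (0.36 to 0.53). Scaling by library size alone moved the median log2 fold change of all genes from -0.01 to 0.06 and the share of calls that rose from 47.8% to 69.8%. The causes were not tested. Depth was lowest for Srm and Amd2, with 1710 and 2534 counts in all.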
